A study of Mus musculus with 6 samples.

Results

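Described here are 10 genes used to follow epithelial-mesenchymal transition (EMT): the epithelial adhesion genes Cdh1 and Epcam, the mesenchymal cadherin gene Cdh2, the vimentin gene Vim, and the transcription factor genes Snai1, Snai2, Twist1, Twist2, Zeb1 and Zeb2. They were taken by gene symbol from a table of 52550 genes, and all 10 were found and passed the filter on low counts. RNA was sequenced from mouse lung cells labelled alveolar epithelial type II (AT2), the surfactant-making cells of the alveolus, in 3 control libraries and 3 libraries labelled Grp78 knockout. Every mouse was C57BL/6 and carried 1 Sftpc allele with the tamoxifen-inducible recombinase creERT2, which is driven by the surfactant protein C gene of AT2 cells, and floxed Grp78 alleles (Grp78f/f). The genotype label gives the controls as without tamoxifen (Tmx) and the knockouts as with it. The day label of all 6 libraries, controls included, counts 10 days from a Tmx injection, so the 2 labels of the controls disagree. By the genotype labels, tamoxifen and the knockout cannot be told apart. Ages are not given, and no label ties a replicate to its own mouse. P-values therefore cover only the spread among these libraries, which may be technical. Lungs were digested with dispase and CD45- EPCAM+ cells were taken with magnetic beads, so the protein of 1 of the 10 genes, EpCAM, was the marker that selected the cells.

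In EMT, epithelial cells loosen their junctions and take on features of mesenchymal cells such as fibroblasts. E-cadherin (Cdh1) joins neighbouring epithelial cells, EpCAM is a second epithelial surface adhesion protein, N-cadherin (Cdh2) is the cadherin that often replaces E-cadherin, and vimentin is the intermediate filament protein of mesenchymal cells. The SNAIL (Snai1, Snai2), ZEB (Zeb1, Zeb2) and TWIST (Twist1, Twist2) factors regulate these genes, and SNAIL and ZEB proteins bind E-box sequences such as CAGGTG, through which they repress Cdh1. In the lung, fibroblasts, endothelial cells and leukocytes also make vimentin and several of these factors.

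The stretches upstream of Snai1 and Epcam are shown because 1 gene was higher and the other lower in the libraries labelled knockout, and both hold the E-box that SNAIL and ZEB proteins recognise. They are the 250 bases before the annotated start, from RefSeq on GRCm38.p6, with each CAGGTG, read on either strand, in capitals.
Snai1, chr2:167537945-167538194, plus strand: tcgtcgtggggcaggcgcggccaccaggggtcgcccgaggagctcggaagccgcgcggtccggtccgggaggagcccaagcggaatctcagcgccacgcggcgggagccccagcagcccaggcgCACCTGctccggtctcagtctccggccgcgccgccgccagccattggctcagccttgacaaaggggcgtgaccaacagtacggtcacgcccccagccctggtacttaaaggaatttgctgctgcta
Epcam, chr17:87635729-87635978, plus strand: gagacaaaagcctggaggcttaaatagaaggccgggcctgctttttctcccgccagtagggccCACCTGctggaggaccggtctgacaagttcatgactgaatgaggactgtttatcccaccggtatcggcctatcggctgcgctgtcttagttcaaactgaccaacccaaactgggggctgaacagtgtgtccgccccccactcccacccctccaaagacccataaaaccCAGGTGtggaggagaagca
Snai1 had 1 match, which began 126 bases before the start, and Epcam had 2, which began 187 and 19 bases before it. RefSeq promoter windows, of 250 bases before and 50 from the start, were at hand for 6 of the 10 genes in 9 windows, 4 of them of Zeb2. The other genes were Cdh1, Cdh2, Snai2 and Zeb1. The windows of Vim, Twist1, Twist2 and Zeb2 held no CAGGTG, and 20.2% of all 32851 windows held at least 1. TGATGNAAT, a C/EBP-ATF composite site, occurred in none of the 9 windows and in 0.965% of all windows. The AP-1 site TGANTCA occurred in 1 Zeb2 window, 2 times, against 7.81% of all windows. Both of these were also searched on both strands, and no match of 1 motif overlapped a match of another.

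Libraries held 110770711 to 149520306 counts. Values are CPM, a count divided by the library total in units of 1e+06, scaled by TMM factors, and a gene was called where the edgeR adjusted p was under 0.05. Hspa5, the gene of Grp78, was at 1355, 1289 and 925 CPM in controls 1, 2 and 3 and at 9262, 9180 and 3809 CPM in libraries 1, 2 and 3 labelled knockout, a fold of 6.24 upward (edgeR adjusted p = 0.00208). Gene counts do not separate the floxed exons, so directions below are between libraries as labelled. Surfactant genes of AT2 cells were abundant in all libraries, with the 12 AT2 markers summing to 113492 to 131010 CPM in controls and 45444 to 57085 CPM in the libraries labelled knockout. The 9 airway markers, led by the club cell gene Scgb1a1, were also present and summed to 31052 to 57276 and 32521 to 35995 CPM. Libraries 3 of both groups stood apart: the edgeR call covered 6938 genes in all and 10581 genes without both.

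Vim and 3 of the 6 EMT factor genes (Snai1, Snai2 and Twist1) rose in the libraries labelled knockout, while Cdh1 and Epcam fell. Twist2, Zeb1, Zeb2 and Cdh2 were not called. Among the 10 genes 4 were thus called higher, against 18.0% of the 18849 genes tested, and 2 lower, against 18.8%. The groups of 3 did not overlap for 8 of the 10: 6 lay above in the libraries labelled knockout (25.0% of all tested genes did) and 2 below (26.6%). The median log2 fold of the 10 was 0.97, against 0.02 over all genes tested.

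**Figure D1:**
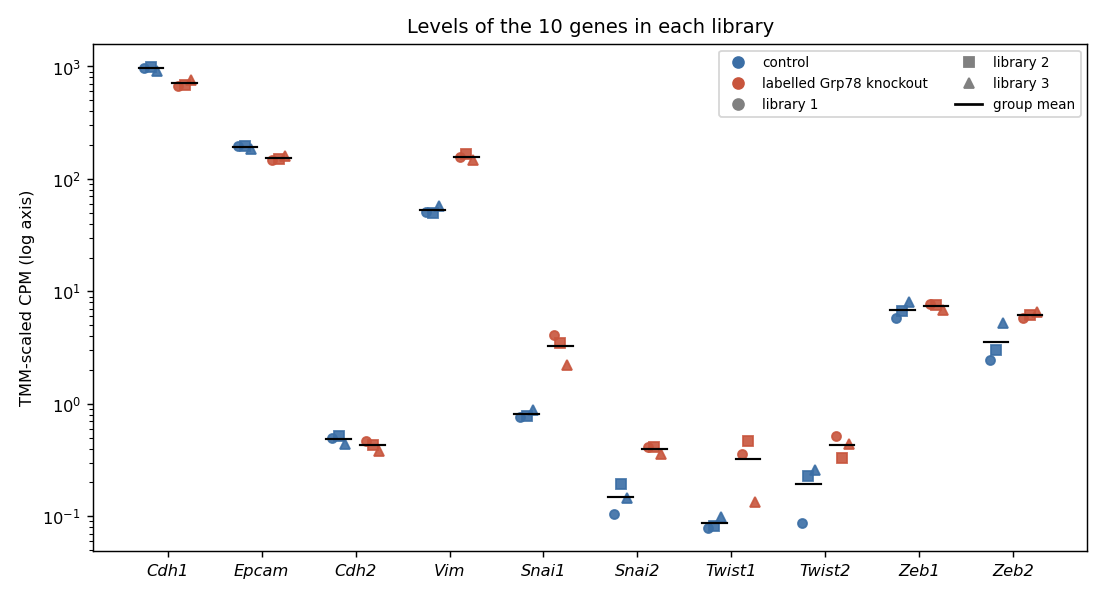
Level of each of the 10 genes in every library (CPM scaled by TMM, log axis); each point is a library and each bar the mean of 3 libraries. Vim sits at 50.02 to 57.4 CPM in controls and at 148 to 166 CPM in the libraries labelled knockout, while Cdh1 and Epcam sit lower in the libraries labelled knockout.

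Cdh1, the E-cadherin gene (chromosome 8, 106603351 to 106670246, plus strand, mm10), was the most abundant of the set. It stood at 974, 989 and 921 CPM in controls 1, 2 and 3 and at 676, 682 and 761 CPM in libraries 1, 2 and 3 labelled knockout. All 3 libraries labelled knockout lay below all controls, and library 3 of each group lay nearest the other group. Means were 961 ± 35.7 and 706 ± 47.4 CPM (SD, n = 3 each), 1.36-fold lower (log2 fold -0.44, SE 0.115, edgeR adjusted p = 0.0210). Epcam (chromosome 17, 87635979 to 87651129, plus strand) was at 197, 195 and 184 CPM in the controls and at 148, 149 and 161 CPM in the libraries labelled knockout. The groups again did not overlap, and library 3 of each group was again the nearest to the other. The log2 fold of Epcam was -0.33 (SE 0.0901, edgeR adjusted p = 0.0250), 1.26-fold lower. Both calls ended with library-size scaling, at log2 folds of -0.18 for Cdh1 (edgeR adjusted p = 0.234) and -0.07 for Epcam (0.581). They also ended without any 1 of the 4 libraries numbered 1 or 2, at edgeR adjusted p-values of 0.0516, 0.0906, 0.0909 and 0.0924 for Cdh1 (controls first) and 0.0622, 0.0930, 0.104 and 0.106 for Epcam, and the Epcam call also with upper-quartile factors (0.0501).

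Cdh2, the N-cadherin gene (chromosome 18, 16588877 to 16809246, minus strand), was barely detected. It had 57, 70 and 57 counts in controls 1, 2 and 3 and 64, 51 and 54 counts in libraries 1, 2 and 3 labelled knockout. In CPM these were 0.4999, 0.517 and 0.436 against 0.471, 0.429 and 0.383, and the groups overlapped. The edgeR estimate for Cdh2 was -0.18 on the log2 scale (SE 0.258, adjusted p = 0.611), and its sign turned under library-size scaling (0.075, adjusted p = 0.834).

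Vim (chromosome 2, 13573927 to 13582826, plus strand) was at 51.2, 50.02 and 57.4 CPM in controls 1, 2 and 3 and at 157, 166 and 148 CPM in libraries 1, 2 and 3 labelled knockout. The libraries labelled knockout were all well above the controls, and the spread within each group was small beside the gap. Its mean was 52.8 ± 3.96 CPM in controls and 157 ± 8.73 CPM in the libraries labelled knockout (SD, n = 3 each), 2.97-fold higher (log2 fold 1.57, SE 0.0956, edgeR adjusted p = 0.000253). The call of Vim was kept under all 14 alternative fits, with log2 folds of 1.52 to 1.82.

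Snai1, which encodes SNAIL (chromosome 2, 167538195 to 167542814, plus strand; the upstream stretch printed above ends where it begins), had the largest log2 fold of the 10 genes over all 6 libraries. Without library 3 labelled knockout, or without both libraries numbered 3, Twist1 stood just above it, at 2.25 against 2.22 and 2.36 against 2.29. Its level was 0.772, 0.776 and 0.873 CPM in controls 1, 2 and 3 and 4.07, 3.45 and 2.20 CPM in libraries 1, 2 and 3 labelled knockout. All libraries labelled knockout lay above the controls, with library 3 the lowest of them. The means of Snai1 were 0.807 ± 0.0572 and 3.24 ± 0.953 CPM (SD, n = 3 each), 4.02-fold higher (log2 fold 2.01, SE 0.259, edgeR adjusted p = 0.00166), and it was called in all 14 alternative fits. Snai2, which encodes SLUG (chromosome 16, 14705852 to 14709385, plus strand), was read at low counts: 12, 26 and 19 in the controls and 56, 49 and 51 in the libraries labelled knockout. These were 0.105, 0.192 and 0.145 CPM against 0.412, 0.412 and 0.361 CPM, with no overlap. Snai2 was 2.65-fold higher (log2 fold 1.41, SE 0.344, edgeR adjusted p = 0.0171). Its call ended without control 1 (edgeR adjusted p = 0.0551) and without the first or the second library labelled knockout (0.0626 and 0.0635).

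Twist1, a basic helix-loop-helix factor of mesoderm (chromosome 12, 33957671 to 33959829, plus strand), had 9, 11 and 13 counts in controls 1, 2 and 3 and 49, 56 and 19 in libraries 1, 2 and 3 labelled knockout. In CPM these were 0.0789, 0.0813 and 0.0995 against 0.360, 0.471 and 0.135. Library 3 labelled knockout was only just above the controls, and the other two were well above. Twist1 was 3.67-fold higher (log2 fold 1.88, SE 0.519, edgeR adjusted p = 0.0264). Its call rested on most libraries: it ended without control 1, 2 or 3 (0.0805, 0.0945 and 0.0614) and without library 1 or 2 labelled knockout (0.0809 and 0.104), as well as with limma-voom (0.0639) and with the replicate number as a block (0.0529).

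Twist2, the close relative of Twist1 (chromosome 1, 91801461 to 91848028, plus strand), had 10, 31 and 34 counts in the controls and 70, 39 and 62 in the libraries labelled knockout. Its CPM values of 0.0877, 0.229 and 0.260 lay below those of 0.515, 0.328 and 0.439, but control 1 was far under the other controls. The log2 fold of 1.14 (SE 0.444) missed the threshold (edgeR adjusted p = 0.0791). Without both libraries numbered 3 Twist2 was called (0.0460). The span of an antisense gene, Gm29100, introns included, holds 46.5% of the exonic bases of Twist2. Where exons of both genes overlap, their reads cannot be told apart without strand. Gm29100 itself was at 0.0151 ± 0.0153 CPM in controls and 0.00560 ± 0.00970 CPM in the libraries labelled knockout (SD, n = 3 each), far below Twist2.

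Zeb1, a zinc-finger repressor (chromosome 18, 5591860 to 5775467, plus strand), was at 5.86, 6.66 and 8.12 CPM in controls 1, 2 and 3 and at 7.74, 7.57 and 6.82 CPM in libraries 1, 2 and 3 labelled knockout. The groups overlapped, with control 3 the highest of all 6. The log2 fold of Zeb1 was 0.10 (SE 0.145, edgeR adjusted p = 0.614). Without control 1 it was -0.013 (0.957), and without both libraries numbered 3 it was 0.29 and called (0.0346).

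Zeb2, the paralog of Zeb1 (chromosome 2, 44983632 to 45117395, minus strand), was at 2.46, 2.99 and 5.21 CPM in the controls and at 5.74, 6.16 and 6.61 CPM in the libraries labelled knockout. The libraries labelled knockout were all higher, and control 3 came close to them. The log2 fold of 0.79 (SE 0.268) fell just short of the threshold (edgeR adjusted p = 0.0510). It was called with the replicate number as a block (0.86, edgeR adjusted p = 0.0219) and without control 3 (1.17, edgeR adjusted p = 0.00400), and in 9 of its 14 alternative fits in all. Zeb2os lies on the opposite strand, and its span, introns included, holds 3.80% of the exonic bases of Zeb2. It was at 0.0872 ± 0.0387 CPM in controls and 0.189 ± 0.0544 CPM in the libraries labelled knockout (SD, n = 3 each, log2 fold 1.09, edgeR adjusted p = 0.113). Summed over the 6 factor genes, the level was 9.37, 10.9 and 14.7 CPM in the controls and 18.8, 18.4 and 16.6 CPM in the libraries labelled knockout.

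**Figure D2:**
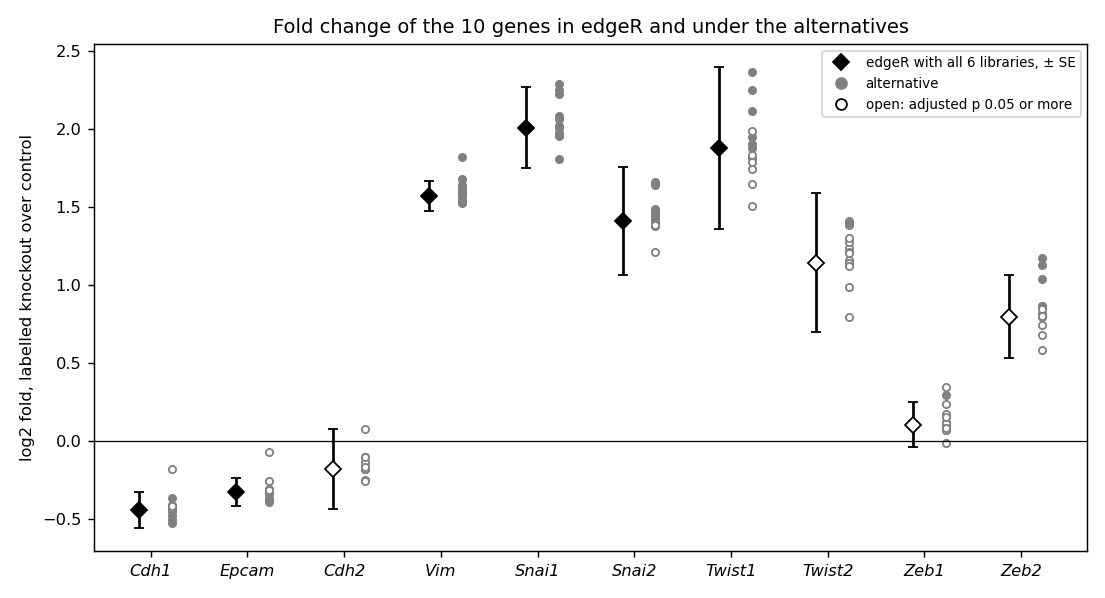
Log2 fold of each of the 10 genes, libraries labelled knockout over controls, from edgeR with all 6 libraries (black, bars of 1 SE). Grey points are the alternative fits, and filled points were called. Snai1, Twist1, Vim and Snai2 lie above 0 at 2.01, 1.88, 1.57 and 1.41, and Cdh1 and Epcam below it at -0.44 and -0.33.

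Levels per kilobase of exon placed Cdh1, Epcam and Vim far above the factor genes in both groups. In the controls Cdh1 was at 210 CPM per kb, Epcam at 87.7, Vim at 11.1, Zeb1 at 0.670 and Snai1 at 0.498. Zeb2 followed at 0.178 CPM per kb, Snai2 at 0.0731, Twist2 at 0.0606, Cdh2 at 0.0601 and Twist1 at 0.0532, and from Snai2 down the ranges of neighbours in this order overlapped. In the libraries labelled knockout the order began with Cdh1 at 154, Epcam at 69.7 and Vim at 33.0 CPM per kb, and Snai1 at 2.00 then stood above Zeb1 at 0.719. Zeb2 was next at 0.310 CPM per kb, then Twist1 at 0.198, Snai2 at 0.195, Twist2 at 0.135 and Cdh2, now last, at 0.0530. There Zeb2 and Twist1, and Twist1 and Snai2, overlapped in range, while the other neighbours were apart. The level of Epcam per kb was 7.87 times that of Vim in controls and 2.11 times in the libraries labelled knockout.

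The balance of paired genes within a library does not depend on how libraries are scaled. The log2 ratio of Vim to Epcam counts was -1.95, -1.96 and -1.69 in controls 1, 2 and 3 and 0.08, 0.15 and -0.12 in libraries 1, 2 and 3 labelled knockout. The groups did not overlap, and library 3 of each group was nearest to the other. The difference was 1.90 on the log2 scale, a 3.74-fold shift of the ratio (exact two-sided permutation test, p = 0.1, adjusted over 2 ratios 0.2, where 0.1 is the smallest p that 3 against 3 allows). The log2 ratio of Cdh2 to Cdh1 counts, the cadherin balance, was -10.92, -10.89 and -11.03 in the controls and -10.48, -10.62 and -10.94 in the libraries labelled knockout. Here library 3 labelled knockout lay among the controls, and the other two lay above them. The difference was 0.26 on the log2 scale (exact two-sided permutation test, p = 0.3, adjusted 0.3), and Cdh2 itself was not called. Between same-numbered libraries the Cdh2 to Cdh1 ratio was higher in all 3, by 0.44, 0.27 and 0.087 on the log2 scale (mean 0.26, SE 0.1015 with the replicate block).

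Most partners of E-cadherin were called lower. With library-size scaling only 3 of 14 were called lower, while 11 still lay below 0. Of 14 adherens junction partners of E-cadherin, 11 fell (18.8% of all genes tested did), with a median log2 fold of -0.46. Ctnnb1, which encodes the beta-catenin that links cadherins to the cytoskeleton, went from 1618 ± 75.2 to 932 ± 111.4 CPM (SD, n = 3 each; log2 fold -0.80, edgeR adjusted p = 0.00452). The polarity gene Pard3 followed at -0.95 (edgeR adjusted p = 0.00229) and the actin-binding protein gene Lima1 at -0.51 (0.00458). Ajuba, named after its value was seen, was the 1 partner that rose (0.73, edgeR adjusted p = 0.00832). With library-size scaling the median was -0.20. Without control 2 and without the first or the second library labelled knockout, 7, 6 and 6 were called lower.

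Of 15 epithelial gatekeeper factors, which hold cells in the epithelial state, 5 fell and 10 were not called, with a median log2 fold of -0.32. The share of all genes tested that fell was 18.8%. Ehf, an ETS factor of epithelia, fell from 108 ± 16.8 to 58.7 ± 9.36 CPM (SD, n = 3 each; log2 fold -0.87, edgeR adjusted p = 0.00496). The forkhead factor gene Foxa1 was at -0.64 (edgeR adjusted p = 0.00305) and the epithelial splicing regulator gene Esrp2 at -0.46 (0.00528). Grhl2 (-0.38, edgeR adjusted p = 0.0285) and Foxa2 (-0.42, 0.0392), named after their values were seen, were the other two. The median of the gatekeeper factors was -0.057 with library-size scaling, with 7 above 0 and 8 below. With library-size scaling or the replicate block 1 gatekeeper was called higher. Called lower were 2 with library-size scaling, 3 with upper-quartile factors and 9 without library 3 labelled knockout. Without control 2 or either of libraries 1 and 2 labelled knockout, 3 were called lower. Among 13 EpCAM partners and proteases 3 fell and 1 rose, against 18.8% and 18.0% of all genes tested. Their median log2 fold was -0.14 and became 0.12 with library-size scaling. Spint1, a protease inhibitor gene, was lower at -0.56 on the log2 scale (edgeR adjusted p = 0.00733), as were the adhesion receptor gene Cd44 (-0.46, 0.0116) and, named after its value was seen, the tetraspanin gene Cd9 (-0.46, 0.0196). Fhl2, whose protein binds the EpCAM tail in the nucleus, rose by 0.69 (edgeR adjusted p = 0.0153). With the replicate block 6 were called lower and 2 higher, and with library-size scaling 0 lower and 3 higher. Of all 18849 genes tested, library-size scaling called 1343 lower and 6218 higher. Without control 2 or library 2 labelled knockout 1 was called lower, and without library 3 labelled knockout 5 were. The call of Fhl2 was lost without control 3 and without the first or the second library labelled knockout.

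The 24 mesenchymal effector genes are matrix, protease and cytoskeletal genes that mark a mesenchymal state and that fibroblasts also make. Of them 19 rose and 1 fell, against 18.0% and 18.8% of all genes tested, with a median log2 fold of 1.71. Tnc, the gene of the matrix protein tenascin C, went from 1.82, 1.85 and 1.68 CPM in controls to 62.1, 67.4 and 48.2 CPM in the libraries labelled knockout (log2 fold 5.06, edgeR adjusted p = 1.86e-05). Fn1, the fibronectin gene, rose by 2.51 (edgeR adjusted p = 0.000233). Itgb1, named after its value was seen, was the 1 gene that fell (-0.43, edgeR adjusted p = 0.0143), a call that ended with library-size scaling, without control 2 and without the first or the second library labelled knockout. Of 13 other EMT transcription factors tested 4 rose and 1 fell (18.0% and 18.8% of all genes tested did), with a median of 0.21. Hmga2, a chromatin protein gene, rose by 3.30 (edgeR adjusted p = 0.00345) from 0.0668 ± 0.0329 to 0.662 ± 0.255 CPM (SD, n = 3 each), the homeobox genes Prrx2 and Prrx1 by 2.08 (0.00615) and 1.89 (0.00625), and Ets1, named after its value was seen, by 0.34 (0.0375). Tcf3, likewise named afterwards, was lower at -0.33 (edgeR adjusted p = 0.0320), a call lost with library-size scaling, with upper-quartile factors and without any of the same 3 libraries.

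Among 10 other cadherins tested 3 rose, with a median log2 fold of 0.52, while 18.0% of all genes tested rose and 18.8% fell. Cdh11, the cadherin of fibroblasts, went from 6.16 ± 0.828 to 17.3 ± 1.54 CPM (SD, n = 3 each; log2 fold 1.49, edgeR adjusted p = 0.000550). Cdh3, which encodes P-cadherin, was at 1.02 ± 0.141 and 2.11 ± 0.316 CPM (log2 fold 1.04, edgeR adjusted p = 0.00937), and Cdh13, a cadherin with a lipid anchor, rose by 0.99 (0.00357). Cdh16, a cadherin of epithelia named after its value was seen, was at 61.5, 58.96 and 59.0 CPM in controls 1, 2 and 3 and at 17.1, 17.6 and 47.3 CPM in libraries 1, 2 and 3 labelled knockout, with no overlap and no call (log2 fold -1.13, edgeR adjusted p = 0.0566). Cdh4, likewise named afterwards, also lay below without a call (-0.49, edgeR adjusted p = 0.123). With limma-voom and with the replicate block 1 cadherin of this list was called lower, and without library 3 labelled knockout 2 were. Of 8 intermediate filament partners of vimentin tested, 1 was called: the muscle filament gene Des rose by 2.52 (edgeR adjusted p = 0.00145), from 1.55 ± 0.104 to 8.90 ± 3.54 CPM (SD, n = 3 each). The filament list had a median of 0.20, and without library 3 labelled knockout 3 of its genes were called higher. With the replicate block 2 filament genes were called higher and 2 lower.

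**Figure D3:**
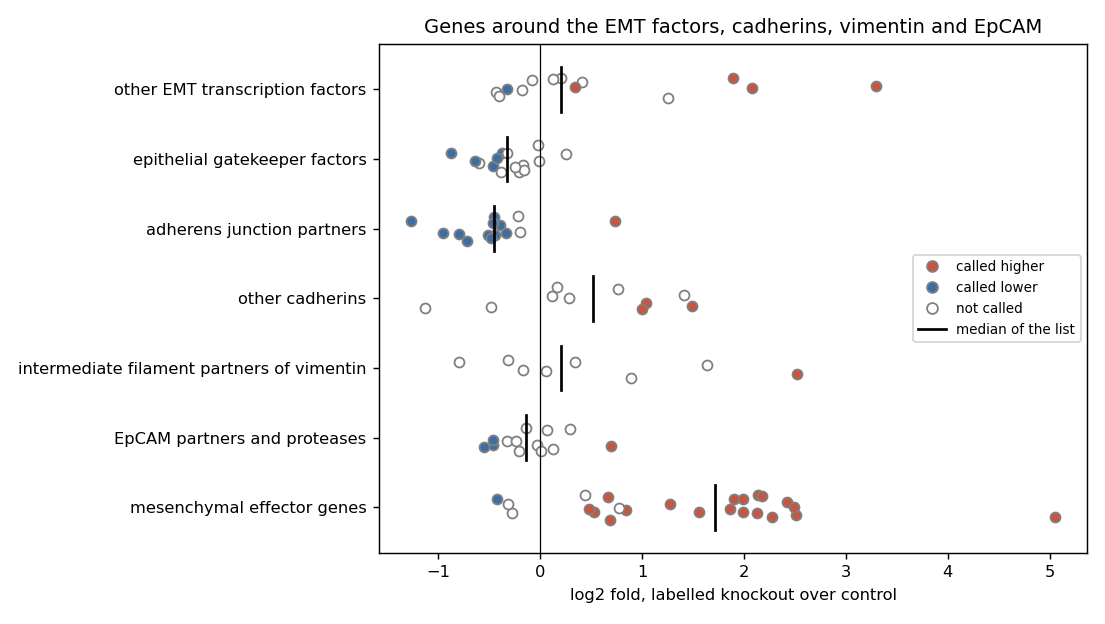
Log2 fold, libraries labelled knockout over controls, of each tested gene in the 7 lists around the EMT genes; colour marks edgeR calls and the black bar is the median of a list. Adherens junction partners gather left of 0 (median -0.46) and mesenchymal effector genes right of it (median 1.71).

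Most markers of fibroblast and mural cells and of mesothelium rose with Vim, Snai1, Snai2 and Twist1, while 18.0% of all genes tested rose. In bulk RNA, a change in the number of cells of a type and a change in RNA per cell cannot be told apart. Of 15 fibroblast and mural markers 12 rose, and their summed level was 164, 153 and 242 CPM in controls 1, 2 and 3 and 459, 497 and 459 CPM in libraries 1, 2 and 3 labelled knockout, 2.53 times as high on average. The proteoglycan genes Bgn, at 46.3 ± 10.7 and 147 ± 11.2 CPM, and Dcn, at 48.9 ± 12.9 and 114 ± 7.23 CPM, led this list (SD, n = 3 each). Without control 2, 7 of the 15 were called higher. Of 8 mesothelial markers, led by Upk3b and Msln, 7 rose, with sums of 138 to 156 CPM in controls and 240 to 276 CPM in the libraries labelled knockout.

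Of 13 endothelial markers, led by Vwf and Esam, Vwf alone was called (log2 fold 0.95, edgeR adjusted p = 0.0199), and the sums were 670 to 741 and 646 to 1061 CPM. The shares over all genes tested, for this and the next lists, were 18.0% called higher and 18.8% lower. Without library 3 labelled knockout 9 endothelial markers were called higher, and without any 1 of the other libraries the call of Vwf was lost. DESeq2 called 3 higher, library-size scaling 5, and the replicate block 2 higher and 1 lower. Of all 18849 genes tested, DESeq2 called 4040 higher, library-size scaling 6218, and the replicate block 4125 higher and 4290 lower. For Pecam1, the endothelial adhesion gene, the log2 fold was 0.39 and not called (edgeR adjusted p = 0.144). Leukocyte markers, led by Lcp1 and Cd68, summed to 244 to 283 CPM in controls and to 133, 142 and 356 CPM in libraries 1, 2 and 3 labelled knockout. Among 16 tested, Mrc1 and C1qc were called higher and Lcp1 lower. Most of the control sums was Lcp1, at 228, 227 and 255 CPM in controls 1, 2 and 3. Without Lcp1, left out after seeing the data, the sums were 17.8 to 27.9 CPM in controls. In libraries 1, 2 and 3 labelled knockout they were then 21.7, 22.6 and 178.7 CPM. With the replicate block 4 leukocyte markers were called higher. The calls of Mrc1 and C1qc were both lost with limma-voom, without the filter and without any 1 of the controls, and that of Lcp1 with library-size scaling and without library 2 labelled knockout. Ptprc, the CD45 gene used to deplete leukocytes, was at 1.05 to 2.07 CPM in controls and at 0.963, 1.29 and 10.99 CPM in libraries 1, 2 and 3 labelled knockout. Library 3 labelled knockout was the high one for Ptprc, Mrc1 and C1qc alike. All 12 AT2 markers fell: Sftpc went from 48732 ± 5648 to 16191 ± 2156 CPM and Sftpa1 from 23614 ± 2274 to 9334 ± 1315 CPM (SD, n = 3 each). Of 8 AT1 markers, led by Ager and Aqp5, 4 fell and Pdpn, named after its value was seen, rose (log2 fold 1.06). Of 9 airway markers, led by Scgb1a1 and Cyp2f2, Tmem212, likewise named afterwards, rose (0.64). Without control 3, 5 airway markers were called lower (3142 of 19345 genes tested were). Without both libraries numbered 3, 8 were called lower (5226 of 18895 genes tested were). With library-size scaling 2 AT1 markers were called lower, and with the replicate block 2 were called higher. No marker was at 0 in every library.

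**Figure D4:**
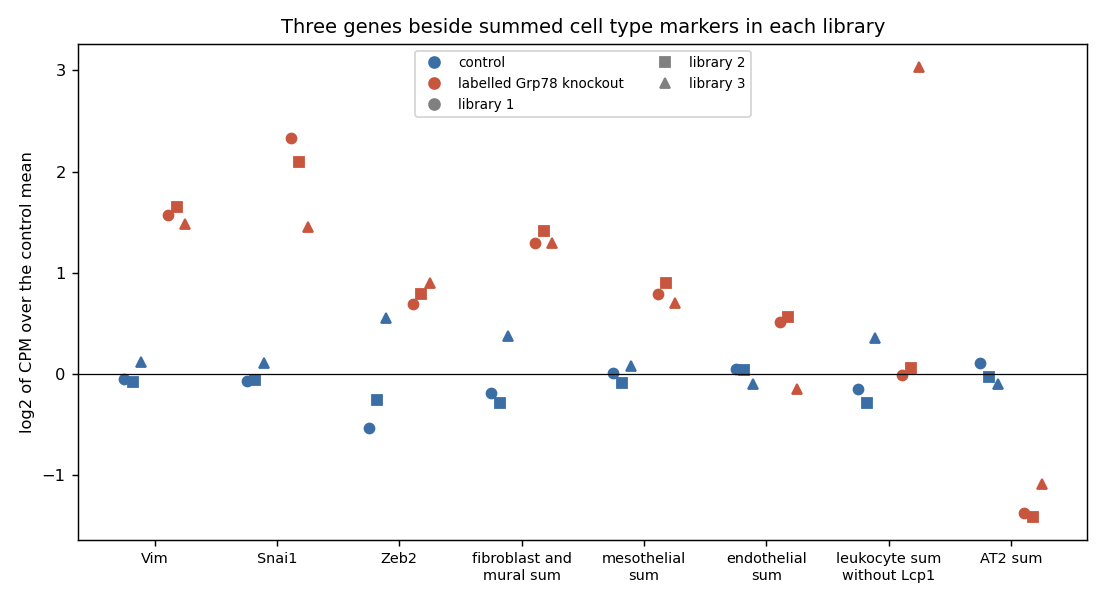
Log2 of CPM over the control mean for Vim, Snai1, Zeb2 and summed cell type markers, with a point for each of the 3 controls and 3 libraries labelled knockout. The sums are of fibroblast and mural, mesothelial, endothelial, leukocyte (without Lcp1) and AT2 markers. Behind the fibroblast and mural points are sums of 153 to 242 CPM in controls and 459 to 497 CPM in the libraries labelled knockout. Library 3 labelled knockout is the highest for leukocyte markers.

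Set against the fibroblast and mural sum, a quantity chosen after the values were seen, Vim was 31.1%, 32.6% and 23.7% of it in controls 1, 2 and 3 and 34.1%, 33.3% and 32.3% in libraries 1, 2 and 3 labelled knockout. These Vim shares overlapped between the groups. Snai1 was 0.470%, 0.506% and 0.360% of the sum in the controls and 0.888%, 0.695% and 0.481% in the libraries labelled knockout, so that library 3 labelled knockout lay among the controls. Zeb2 was 1.5%, 1.95% and 2.15% of it and then 1.25%, 1.24% and 1.44%, lower in all 3. Zeb1 was 3.57%, 4.34% and 3.35% of it and then 1.69%, 1.52% and 1.49%, also lower in all 3. Shares of Snai2 (means 0.0831% and 0.0838%) and of Twist2 (0.103% and 0.0913%) overlapped between the groups. Twist1 was 0.0480%, 0.0530% and 0.0411% of it and then 0.0786%, 0.0947% and 0.0294%, with library 3 labelled knockout below all controls. The part of fibroblast, mural or other cells in the levels of Vim and the factor genes was not tested.

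Among the genes whose levels followed Vim most closely over the 6 libraries were the complement gene Cfb (Pearson r = 0.9985) and Golm1 (0.9977). Cfb was at 25.2 CPM in controls and 77.7 CPM in the libraries labelled knockout (means of 3). For Epcam they were C1galt1 (r = 0.999), a glycosyltransferase gene, Rassf2 (0.9984) and Nrn1 (0.9983). These are descriptions: r was over 0.95 for 411 of 9586 genes with Vim and for 1092 with Epcam, and the points share the group difference and the library scaling.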

How the data were processed

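RNA sequencing of 6 libraries (NEBNext Ultra RNA, paired reads) gave a table of raw counts per gene symbol, which the authors deposited. The submitters' processing notes name mm10 and edgeR 3.7. Aligner, counting program and annotation: not given in the sources used here. Genes with a count of 2 outnumbered those with a count of 1 by 1.63 to 1.76 times, a pattern that counting the mates of a pair apart would give. The counting was not tested, and if mates were counted apart, counting error exceeds what the counts imply. The strand setting is not given, and overlapping or antisense genes cannot be told apart. Gene positions and exon lengths came from GENCODE M21, which names 48018 of the 52550 genes.

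Counts were fitted with edgeR 4.0.16 (R 4.3.3): filterByExpr, TMM factors, robust quasi-likelihood F tests with no term but group. P-values were adjusted by Benjamini-Hochberg over 18849 genes. Log2 folds compare knockout-labelled libraries with controls, and SE is the fold over the square root of F. edgeR's common coefficient of variation between the libraries of a group was 22.3%. Ratios used counts plus 0.5. Likeness used log2(CPM + 0.5) of genes with a mean of at least 10 CPM. The model was tested on simulated data.

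The members and lists were chosen with earlier results of these data known. Named are all members, up to 3 called genes of each pathway list with the lowest p, the 2 most abundant genes of each marker list, Ptprc, Pecam1 and the 3 genes most like Vim and Epcam; 2 genes that this rule names are not reported here. Deviations of same-numbered libraries correlated across genes at 0.350, 0.200 and 0.329, all over 0.1, while the labels do not say what a number marks; those of other numbers correlated at -0.350 to 0.171. The fit with the number as a block is therefore given where it changes a member's call or moves a list's count by over 1.5 times. No libraries agreed within sampling noise. Alternatives were DESeq2 1.42.0, limma-voom (limma 3.58.1), other scalings and filters, the block, and leaving out libraries.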

Additional observations from a re-analysis of the deposited data

How the results depend on the processing

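Of 136 alternative log2 folds of the 10 genes, 102 kept direction and side of the threshold, 21 lost a call, 11 gained one and 2 changed sign. The 2 were Cdh2 at 0.075 with library-size scaling and Zeb1 at -0.013 without control 1, neither called. Over its 14 alternatives Zeb1 ran from that value to 0.35 with library-size scaling, and it was 0.23 without control 3. Of the 10 genes 4 were called higher, and 7 without both libraries numbered 3, with 2 to 4 when single libraries were left out. Over all genes tested, 3391 of 18849 were called higher, 5355 of 18895 without both libraries numbered 3, and 1684 to 4242 without single libraries. With library-size scaling 6218 of 18849 were called higher, with upper-quartile factors 4091, with DESeq2 4040 and with the replicate block 4125. Of the 10 genes 2 were called lower, with 0 under library-size scaling, 1 with upper-quartile factors and 0 to 2 when single libraries were left out. The all-gene number called lower was 3547, with 1343 under library-size scaling, 2825 with upper-quartile factors and 1881 to 4306 without single libraries. The list counts under these settings stand beside the same all-gene counts. Library-size scaling moved the median of all genes by 0.26 on the log2 scale and the higher share of calls from 48.9% to 82.2%, and upper-quartile factors to 59.2%.

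With the replicate block 4 genes were called higher and 2 lower, as without it, but Zeb2 gained and Twist1 lost the call. Over all genes the block called 8415 genes against 6938. For the log2 ratios the block leaves the mean difference as it is by construction (0.26 for Cdh2 to Cdh1, 1.90 for Vim to Epcam), with SEs of 0.1015 and 0.172. Leaving out single libraries gave 0.16 to 0.40 and 1.84 to 1.99. Genes called in all ran from 3706 without control 2 to 8548 without library 3 labelled knockout.

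The filter at a mean of 1 CPM left out Snai2, Twist1, Twist2 and Cdh2, whose counts of 9 to 70 per library limit their precision. Without Lcp1, an alternative chosen after seeing the data, leukocyte markers summed to 17.8 to 27.9 CPM in 5 libraries and to 178.7 CPM in library 3 labelled knockout.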
